A study of Rattus norvegicus with 40 samples.

Results

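Late ischemia was examined by setting 120 min of ischemia against 10 min of ischemia, both without reperfusion, in cultured neonatal rat ventricular myocytes (NRVMs), heart muscle cells isolated from newborn rats. The members are the 4 arrays titled 120min ischemia and the 4 titled 10min ischemia, 8 of the 40 arrays of the series, and they were chosen by their titles alone. The 120 min group holds myocytes that had a labelled 120 min of coverslip hypoxia, in which a coverslip placed on the cell layer limits the exchange of oxygen, nutrients and waste. The 10 min group holds myocytes that had a labelled 10 min of the same, so both groups were ischemic and neither is an untreated control. Each group has 2 cell preparations with 2 duplicates each. The other 32 arrays cover ischemia at 0, 30 and 60 min and ischemia+reperfusion at 0, 10, 30, 60 and 120 min. No genotype, drug or added agent is named for either group, and the sources used here give no rat strain, cell plating or purity of the cultures. The p-values measure the scatter left after group and preparation are fitted, pooled over all 10 groups. Nothing says that duplicates came from separate cultures, so part of that scatter may be technical.

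Cells respond to a sudden stress with immediate early genes, which are transcribed without the need for new protein and encode transcription factors of the AP-1 and NR4A families together with inhibitors that end the signal. Lack of oxygen stabilises the hypoxia-inducible factor (HIF), which induces glycolytic enzymes, glucose carriers and regulators of growth. Heart cells under stress can also make interleukin-1 and chemokines, the signals that draw leukocytes into an injured heart, and many of these genes are targets of NF-kB.

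Values are normalised probe set intensities, given in the order preparation 1 duplicates 1 and 2, then preparation 2 duplicates 1 and 2. Changes are 120 min minus 10 min on the log2(intensity + 16) scale, with the standard error of the fit and n = 2 preparations per group. A probe set was called when its adjusted p was under 0.05 over all 18625 probe sets tested with limma. The standard error had a median of 0.118 log2 units, a precision limited by the number of arrays.

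The 8 arrays correlated by 0.965 to 0.989 within the 120 min group and by 0.979 to 0.988 within the 10 min group. Deposited array medians ran from 102.4 to 126.4 at 120 min and from 130.7 to 164.3 at 10 min, without overlap, and were brought to a common distribution. The 120 min array of preparation 2 duplicate 2 stood apart. Hspa1a, the inducible heat shock protein 70, had 848, 773, 1156 and 9043 at 120 min, against 739, 744, 536 and 610.4 at 10 min. This array was far above all the others, and the other 3 at 120 min were above the 10 min arrays by much less. On centred values that array correlated by 0.083 with its own group and by 0.206 with the 60 min ischemia+reperfusion group, where the other 3 arrays at 120 min correlated by 0.304 to 0.374 with their own group. In the 120 min ischemia+reperfusion group, the array of preparation 2 duplicate 1 correlated by 0.103 with its own group and by 0.301 with the 120 min ischemia group. Each array was used as labelled. From here on the 120 min array of preparation 2 duplicate 2 is called the doubted array and results are given with and without it, and the other duplicate of that preparation at 120 min is called the partner array.

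The labelled cell type showed in the markers. All 12 cardiomyocyte markers on the array were tested, and their mean log2 level was 12.92 to 12.98 in the 120 min arrays and 12.99 to 13.08 in the 10 min arrays. Genes of other cells were detected beside them: 14 fibroblast markers, 9 endothelial, 11 macrophage and leukocyte, 10 smooth muscle and pericyte, 4 epicardial and 5 neural markers passed the filter, and none of these was at the floor in all 8 arrays. Of 7 erythroid markers 3 were on the array and 0 passed the filter.

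Between 120 and 10 min, 130 of 18625 probe sets were called (0.698%), 68 higher (0.365%) and 62 lower (0.333%) at 120 min. They stand for 102 named genes, 51 higher and 51 lower. The rises were larger than the falls, with 17 called probe sets at least 1 log2 unit higher and 4 at least 1 log2 unit lower. The 12 genes with the largest rises called with and without the doubted array were, in descending order, Fos, Cxcl2, Nr4a1, Il1b, Nr4a3, Gdf15, Ddit4, Gadd45b, H4f3, Ier2, Il1a and Junb. All 130 moved the same way in both preparations, and in 120 of them the 4 arrays at 120 min did not overlap the 4 at 10 min. Over all probe sets tested, 6.71% lay wholly above and 7.32% wholly below. The median change of all probe sets was -0.0078 and 48.3% of them were above 0.

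Without the doubted array 326 probe sets were called (1.75%), 181 higher (0.972%) and 145 lower (0.779%), for 226 genes. Of the 130, 121 were called again, all in the same direction, which is 93.1% of the 130 and 37.1% of the 326. The other single arrays mattered as well: leaving out the partner array gave 23 calls, leaving out the 120 min duplicate 1 of preparation 1 gave 245 and leaving out the 10 min duplicate 2 of preparation 1 gave 199. With the array medians left as deposited, 47 probe sets were called higher and 2022 lower, about a median change of -0.268. Without the preparation as a block 42 were called, and of the rises named below Nr4a3, Gdf15, Bhlhe40, Rgs16, Ptgs2, Nfkbia, Itgb2, Xirp1 and Clk1 were not (adjusted p-values of 0.0639 to 0.319). With only the 120 and 10 min arrays in the fit limma called 0 (2172 at an unadjusted p under 0.05), so the calls draw their error estimate from the other 8 groups.

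**Figure D1:**
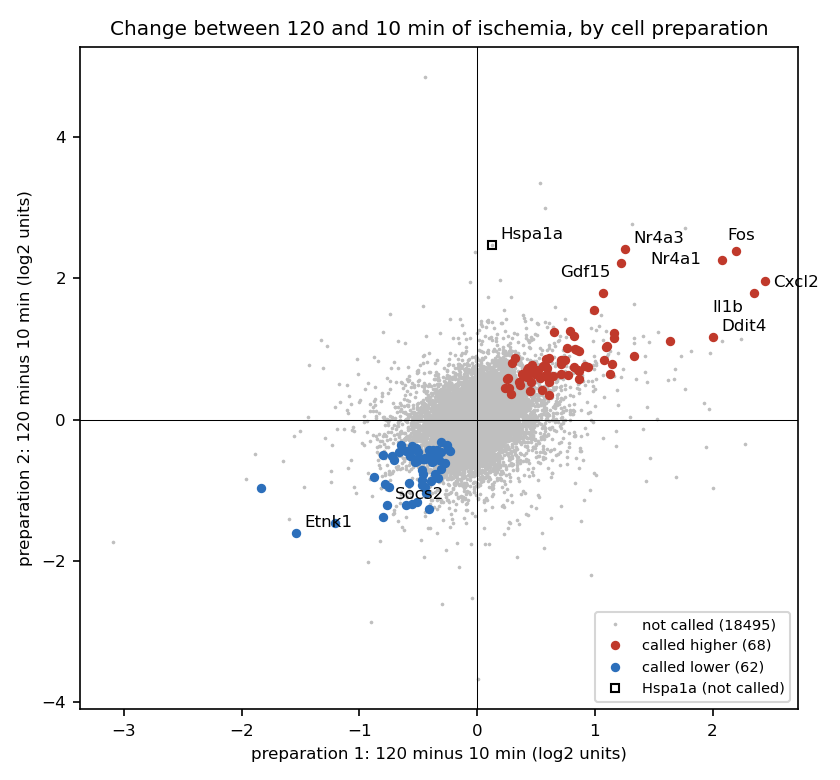
Change between 120 and 10 min of ischemia in preparation 1 (horizontal axis) and preparation 2 (vertical axis), both in log2 units, 1 point per probe set and duplicates averaged. Called probe sets lie at the upper right (68 higher) and lower left (62 lower). Hspa1a, not called, changed by 0.13 in preparation 1 and by 2.47 in preparation 2.

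Of 24 immediate early transcription factors tested, 6 rose, 0 fell and 18 did not pass, against 0.365% of all probe sets called higher. This count takes each gene by its brightest probe set, and with any probe set of a gene 7 rose, Nr4a3 being the additional one. Their median change was 0.59, against -0.0078 for all probe sets, and 21 of 24 lay above 0. Without the doubted array 8 rose, where 0.972% of all probe sets were called higher, and the median was 0.41. Both shares, 0.365% with all arrays and 0.972% without the doubted one, also stand against the counts of rises in each list below. Fos, which pairs with Jun proteins to form the transcription factor AP-1, had 2814, 2459.9, 2507 and 2679.9 at 120 min, against 628, 501, 472 and 491 at 10 min. All 4 arrays at 120 min were several times brighter than every array at 10 min, in both preparations. Fos rose by 2.29 ± 0.20 log2 units (adjusted p = 0.0017), and by 2.27 without the doubted array. Junb, another AP-1 subunit, had 1534, 1427, 1542 and 1303 at 120 min, against 656, 706, 714 and 653 at 10 min, with no overlap. Junb rose by 1.07 ± 0.16 log2 units (adjusted p = 0.016). Jun itself changed by 0.027 (adjusted p = 0.94) and did not pass.

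The NR4A genes encode orphan nuclear receptors that respond to stress and to cyclic AMP. Nr4a1 had 1619, 1489, 1402 and 1914 at 120 min, against 364, 348, 279.8 and 387 at 10 min. Every array at 120 min was several times as bright as every array at 10 min, and the doubted array was the highest of the 4. Nr4a1 rose by 2.17 ± 0.19 log2 units (adjusted p = 0.0017). Nr4a3 had 222, 218, 154 and 636 at 120 min, against 88.9, 76.9, 38.8 and 55.4 at 10 min, again with no overlap but with the doubted array far above the other 3. Its rise of 1.84 ± 0.34 log2 units (adjusted p = 0.037) was 1.35 without that array, and a second, brighter probe set of the gene changed by 0.79 (adjusted p = 0.13). Nr4a2 rose by 0.62 (adjusted p = 0.037).

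Bhlhe40, a repressor of clock and metabolic genes that HIF also induces, had 1927, 2000.2, 1986 and 2374 at 120 min, against 1093, 1045, 1308 and 1364 at 10 min, and rose by 0.78 ± 0.15 log2 units (adjusted p = 0.041). Cebpb, a factor of inflammatory gene expression, rose by 0.56 (adjusted p = 0.019). Some members with large estimates did not pass, among them, chosen after their values were seen, Atf3, a stress-induced repressor (2.04, adjusted p = 0.059), Fosb (1.94, adjusted p = 0.22) and Maff (1.48, adjusted p = 0.097). Egr1, the serum-induced zinc finger factor, changed by 0.64 (adjusted p = 0.067), and without the doubted array it was called, with a rise of 0.60 (adjusted p = 0.0496). Of 11 Kruppel-like factors 0 passed in limma, with a median of 0.18. Klf9 did not overlap between the groups, but its change of 0.18 had a standard error of 0.67. Its 0 min level in ischemia was 9.675 on the log2 scale, against 11.33 at 10 min. With the partner array left out, so that the doubted array stood alone for its preparation, the adjusted p was 0.0725 for Nr4a3, 0.05 for Junb (not under the threshold) and 0.0541 for Bhlhe40, and Fos and Nr4a1 kept their calls.

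Of 30 immediate early feedback and signalling genes, 5 rose, 0 fell and 25 did not pass, with a median of 0.32 (0.27 and 6 rises without the doubted array). Gadd45b, a stress-induced activator of the p38 kinase pathway, had 791, 875, 1183 and 1759 at 120 min, against 417, 359.9, 433 and 380.3 at 10 min. The preparation 2 arrays were the higher of the 120 min group, and no array at 10 min reached the 120 min range. Gadd45b rose by 1.43 ± 0.22 log2 units (adjusted p = 0.023). Ier2, a nuclear immediate early protein, had 1215, 1242, 1456 and 1499 at 120 min, against 618, 599, 501 and 488 at 10 min, with little spread inside either group, and rose by 1.27 ± 0.17 log2 units (adjusted p = 0.012).

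Zfp36 (tristetraprolin), which binds AU-rich elements and speeds the decay of cytokine mRNAs, had 1800.1, 1862, 1775 and 1908 at 120 min, against 1077, 1089, 986 and 1059.8 at 10 min. The groups did not overlap, and Zfp36 rose by 0.79 ± 0.08 log2 units (adjusted p = 0.0045) and kept its call without any single array. Its relative Zfp36l2 rose by 0.75 (adjusted p = 0.0043). Rgs16, which speeds the shut-off of G protein signals, had 637, 589, 749 and 479.9 at 120 min, against 365, 315, 348 and 353 at 10 min, and rose by 0.79 ± 0.12 log2 units (adjusted p = 0.025). It was also the 1 called member of 22 G protein, adrenergic receptor and RGS genes. The MAP kinase phosphatase Dusp1 changed by 0.43 and the kinase Sgk1 by -0.24, and neither passed. Leaving out the partner array, the adjusted p of Gadd45b was 0.0522 and that of Rgs16 0.0725.

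Of 16 cytokines, chemokines and cyclooxygenase genes, 4 rose, 0 fell and 12 did not pass by their brightest probe sets, and all 16 estimates were above 0. With any probe set of a gene 5 rose, the additional one being Cxcl3, a chemokine close to Cxcl2, on its dimmer probe set (0.96, adjusted p = 0.0405). The list's median was 0.38, and 0.50 with 6 rises without the doubted array. Cxcl2, a chemokine that attracts neutrophils, had 1341, 1733, 1992 and 537 at 120 min, against 265, 269, 262 and 245 at 10 min. The 10 min arrays were nearly level, and the doubted array was the lowest at 120 min but still above all of them. Cxcl2 rose by 2.21 ± 0.24 log2 units (adjusted p = 0.0046), and by 2.67 without the doubted array.

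Il1b, the secreted interleukin-1 beta, had 391, 614, 1045 and 233 at 120 min, against 96.4, 71.5, 132 and 133 at 10 min. It rose by 2.07 ± 0.19 log2 units (adjusted p = 0.0018), and by 2.59 without the doubted array. Il1a, its relative that acts as an alarm signal, had 179, 243, 323 and 98.6 at 120 min, against 83.6, 84.9, 78.7 and 58.4 at 10 min, and rose by 1.20 ± 0.15 log2 units (adjusted p = 0.012). For both interleukins the doubted array was the lowest at 120 min and the groups did not overlap. A second probe set of Il1a changed by 1.28 (adjusted p = 0.185). Ptgs2, the inducible cyclooxygenase that makes prostaglandins, had 972, 1219.9, 1241 and 845 at 120 min, against 641, 731, 405 and 441 at 10 min, and rose by 0.95 ± 0.15 log2 units (adjusted p = 0.026). Preparation 1 was higher than preparation 2 at 10 min, and the change was 0.66 in preparation 1 and 1.25 in preparation 2. When the partner array was left out, these 4 rises were 0.81 to 1.74 and their adjusted p-values 0.0522 to 0.155.

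Of 17 NF-kB subunits, feedback and adhesion targets, 1 rose, 0 fell and 16 did not pass, with a median of 0.23. The 1 was Nfkbia, the inhibitor that NF-kB induces against itself, with 1572, 1504, 1858 and 1325 at 120 min, against 971, 1062, 962 and 924 at 10 min and a rise of 0.66 ± 0.13 log2 units (adjusted p = 0.041). Its adjusted p without the partner array was 0.0844. The subunit Rela changed by 0.046 and Nfkb1 by 0.23, neither called.

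Macrophage and leukocyte markers stood as follows beside the cytokines. Of 11 tested, 1 rose, 0 fell and 10 did not pass, with a median of 0.29 and 10 of 11 above 0. Their summed intensity was 8284 to 9378 at 120 min and 5918 to 8630 at 10 min, so the groups overlapped. The 1 was Itgb2, the beta-2 integrin of leukocytes, with 585, 527, 359 and 468 at 120 min, against 375, 358, 223 and 243 at 10 min, a rise of 0.68 ± 0.10 log2 units (adjusted p = 0.013) in which the groups overlapped. Ptprc, the pan-leukocyte antigen CD45, changed by 0.40 (adjusted p = 0.23) and Cd68 by 0.27. The part of these cells in the cytokine rises was not tested, and in these bulk samples more cells of a type and more RNA per cell cannot be told apart.

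Of 21 growth factors and matricellular early targets, 1 rose, 0 fell and 20 did not pass, with a median of 0.23. The 1 was Gdf15, a stress-induced member of the TGF-beta family, with 398, 265, 254 and 522 at 120 min, against 145, 117, 66.5 and 65.0 at 10 min. The preparations differed at 10 min and the doubted array was the highest at 120 min, but no array overlapped the other group. Gdf15 rose by 1.72 ± 0.28 log2 units (adjusted p = 0.026), and by 1.47 without the doubted array (adjusted p = 0.017). Its adjusted p without the partner array was 0.0522. Vegfa, the vascular growth factor, changed by 0.024 and Ccn2, connective tissue growth factor, by 0.062, neither called.

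Of 29 HIF targets outside glycolysis, 2 rose, 0 fell and 27 did not pass, against 0.365% of all probe sets called higher. Their median was -0.031. Ddit4 (REDD1), which restrains the growth kinase mTORC1 in hypoxia, had 3752, 3896, 3793 and 2135 at 120 min, against 891, 994, 1237 and 1281 at 10 min. At 120 min 3 arrays lay within 3752 to 3896 and the doubted array far below them, and the 10 min arrays were lower than all 4. Ddit4 rose by 1.59 ± 0.27 log2 units (adjusted p = 0.03), and by 1.79 without the doubted array. Its adjusted p without the partner array was 0.09. The second called member was Bhlhe40, described with the transcription factors. Members not called included Ankrd37 (1.30) and Hilpda, a lipid droplet protein (0.94), and on the other side Car9, a carbonic anhydrase (-0.55), and Ak4, a mitochondrial adenylate kinase (-0.47).

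Of 26 glucose transport and glycolysis genes 0 were called in limma, with a median of -0.11 and 22 of 26 below 0. These values depend on the scaling: relative to the median of all probe sets the list stood at -0.103 (21 of 26 below it), at -0.020 with arrays scaled to a common median (14 below) and at -0.034 on the deposited scale (15 below). Hk2, the inducible hexokinase, changed by -0.56 (adjusted p = 0.4), Pfkfb3, which makes the activator of phosphofructokinase, by 0.86 (adjusted p = 0.099), and the abundant Aldoa by -0.0069. The levels of these lists over the whole series place the comparison. In ischemia at 0, 10, 30, 60 and 120 min, the median level of the HIF targets was 9.78, 10.33, 10.27, 10.42 and 10.43 on the log2 scale and that of the glycolysis list 11.18, 11.80, 11.73, 11.68 and 11.63. Both lists stood higher at 10 min than at 0 min, and their medians moved less between the later times. The immediate early transcription factors had medians of 9.04, 9.33, 9.63, 9.80 and 10.28 and the cytokine list 8.69, 8.58, 8.86, 9.05 and 9.58 at the same times, with the largest step between 60 and 120 min. These medians are descriptions, and the 0 min group holds an array that correlated by only 0.872 with the rest. That array is also in the fit of all 10 groups behind every call and non-call. No setting left it out, so its part in the standard errors was not tested.

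H4f3, a histone gene, had 329, 311, 304 and 151 at 120 min, against 92.4, 92.1, 97.1 and 85.3 at 10 min. The doubted array was the lowest of the 120 min arrays by a wide gap, and the groups did not overlap. The probe set rose by 1.37 ± 0.22 log2 units (adjusted p = 0.026), and by 1.61 without the doubted array. Histone genes have near-identical copies that a probe set may not separate, so the copy is uncertain. Its adjusted p without the partner array was 0.104.

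**Figure D2:**
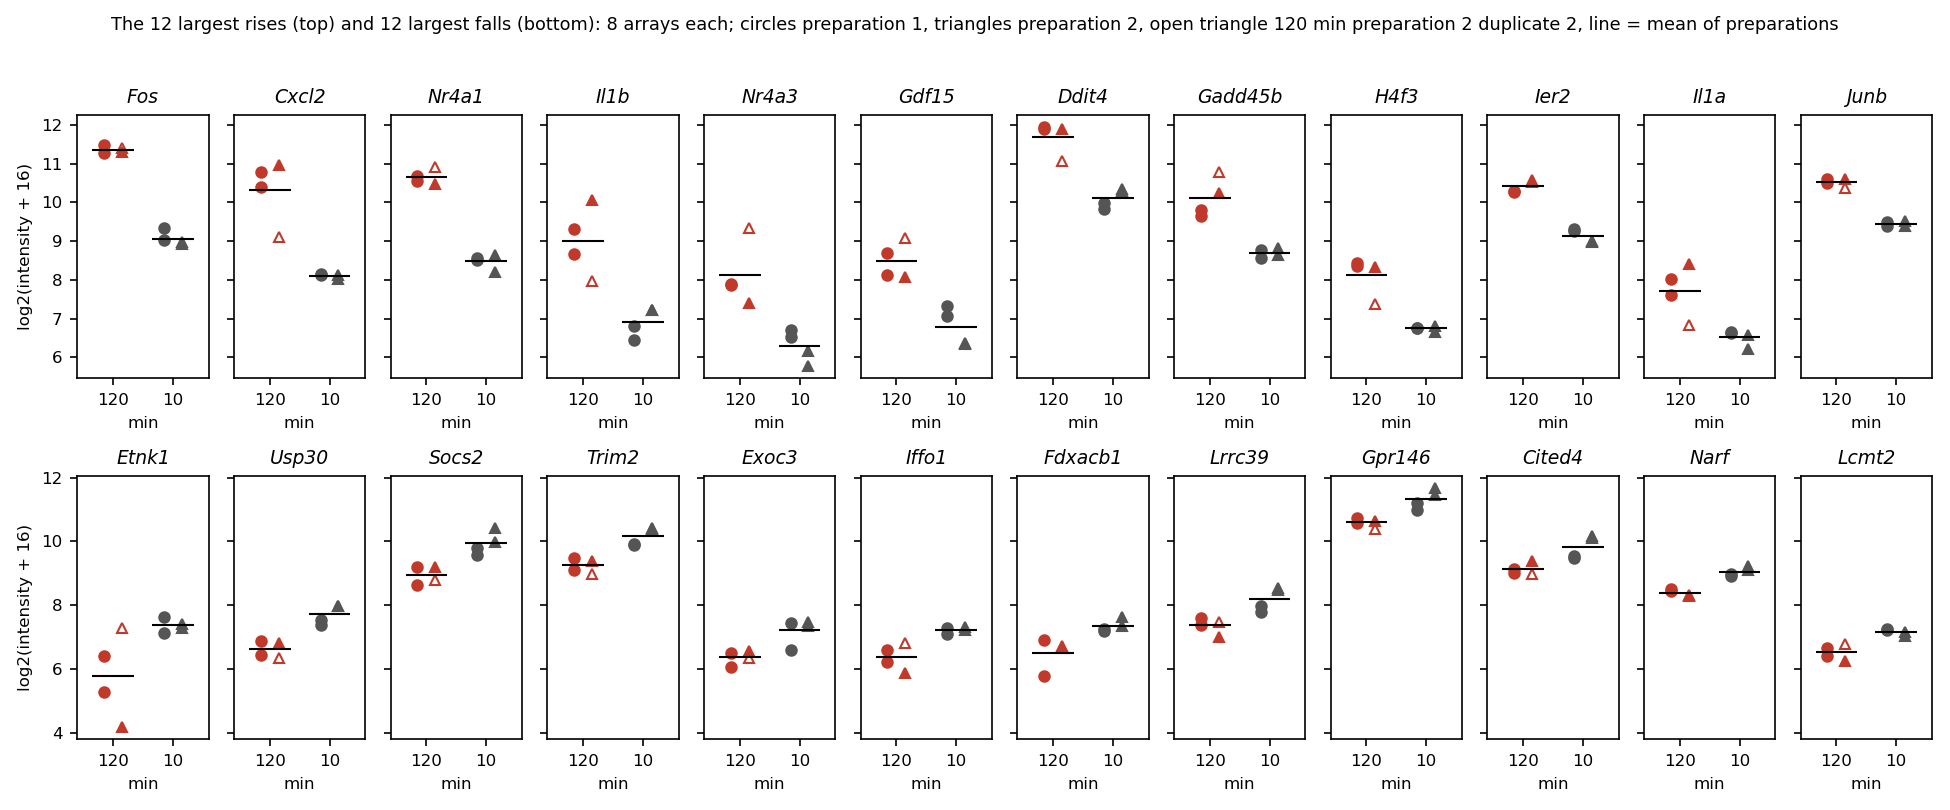
Levels, as log2(intensity + 16), of the 12 largest rises (upper row) and the 12 largest falls (lower row) in the 4 arrays at 120 min (red) and the 4 at 10 min (grey). Circles are preparation 1, triangles preparation 2, the open triangle is the doubted array and the line is the mean of the preparations. Fos, Nr4a1 and Junb were tight in both groups, while the doubted array was the lowest at 120 min for Cxcl2, Il1b, Il1a, Ddit4 and H4f3 and the highest for Nr4a3, Gdf15, Gadd45b and Nr4a1.

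The proximal promoters of 4 of these genes are shown because they carry short motifs of the pathways named above. Each is the 250 bases before the gene's start in RefSeq, build GRCr8, 5′ to 3′ on the gene's strand. Of the 12 genes with the largest rises 10 were in the table, and of the 12 with the largest falls 10. Fos, the largest rise, was not in the table, so no motif count here covers it. Capitals mark every copy, on either strand, of the cyclic AMP response element core TGACG in Nr4a1, of the full element TGACGTCA in Ier2, of an NF-kB motif in Cxcl2 and of the hypoxia response element core ACGTG in Ddit4.
Nr4a1 (chr7:134259888-134260137, plus strand): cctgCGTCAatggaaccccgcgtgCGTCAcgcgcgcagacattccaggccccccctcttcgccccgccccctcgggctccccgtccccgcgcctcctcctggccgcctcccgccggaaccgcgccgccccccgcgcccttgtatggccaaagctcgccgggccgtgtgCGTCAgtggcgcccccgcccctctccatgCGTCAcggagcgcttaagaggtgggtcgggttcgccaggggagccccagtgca
Ier2 (chr19:40399123-40399372, plus strand): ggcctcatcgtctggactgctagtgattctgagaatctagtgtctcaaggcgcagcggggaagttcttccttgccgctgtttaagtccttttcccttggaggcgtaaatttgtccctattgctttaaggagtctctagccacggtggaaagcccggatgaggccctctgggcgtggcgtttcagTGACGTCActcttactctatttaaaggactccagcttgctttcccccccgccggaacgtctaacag
Cxcl2 (chr14:17467256-17467505, minus strand): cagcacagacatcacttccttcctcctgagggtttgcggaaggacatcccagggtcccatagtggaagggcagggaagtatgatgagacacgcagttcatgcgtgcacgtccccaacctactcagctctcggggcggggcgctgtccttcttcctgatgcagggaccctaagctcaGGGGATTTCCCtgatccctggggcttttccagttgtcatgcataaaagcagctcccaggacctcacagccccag
Ddit4 (chr20:28437038-28437287, minus strand): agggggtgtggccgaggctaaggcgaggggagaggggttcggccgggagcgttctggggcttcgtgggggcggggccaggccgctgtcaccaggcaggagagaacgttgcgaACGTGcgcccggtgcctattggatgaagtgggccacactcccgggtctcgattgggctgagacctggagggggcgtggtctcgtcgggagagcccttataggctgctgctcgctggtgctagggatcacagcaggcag

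In Nr4a1 the 4 copies of TGACG were all read on the opposite strand, as CGTCA. Over all 27457 promoters of this length the core TGACG was present in 19%, against 3 of 10 rising genes (Nr4a1, Ier2, Junb) and 3 of 10 falling genes (Etnk1, Fdxacb1, Lcmt2). The full element, which holds the core, was in 1.7% of all promoters, in Ier2 among the rising genes and in 0 falling ones. The NF-kB motif was in 6.41% of all, in Cxcl2 and Nr4a1 among the rising genes and in 0 of 10 falling ones. The hypoxia core ACGTG was in 16.9% of all, in 3 of 10 rising genes (Cxcl2, Ddit4, Gadd45b) and in 4 of 10 falling genes (Trim2, Exoc3, Lrrc39, Gpr146). The AP-1 motif TGANTCA was in 6.36% of all, in Il1a and in Trim2. The serum response CArG box was in 1.5% of all and in 0 of the 20, which do not include Fos. TATAAA was in 13.1% of all, in 4 of 10 rising genes (Il1b, H4f3, Il1a, Junb) and in 1 of 10 falling ones (Fdxacb1). A match is a run of letters and not a measured binding site.

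The falls were smaller, and with all 8 arrays no list had a member called lower by its brightest probe set. The 12 largest falls among the named genes ran from 0.64 to 1.57 log2 units. Etnk1, an ethanolamine kinase of phospholipid synthesis, had 23.3, 69.8, 2.24 and 142 at 120 min, against 183, 126, 139 and 156 at 10 min. The arrays at 120 min were widely spread, and the doubted array lay within the 10 min range. The lowest value, 2.24, was under the 16 added before the log, so the size of the fall is uncertain. This probe set fell by 1.57 ± 0.29 log2 units (adjusted p = 0.037), and by 2.35 without the doubted array, while a brighter probe set of Etnk1 changed by -0.09 (adjusted p = 0.83). Its call was lost without the partner array (adjusted p = 0.327) and, in turn, without the 120 min duplicate 1 of preparation 1 (adjusted p = 0.0728).

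Socs2, a suppressor of growth hormone and cytokine signalling, had 576, 382, 566 and 429 at 120 min, against 879, 749, 1364 and 988 at 10 min. The groups did not overlap, and Socs2 kept its call without any single array. It fell by 0.99 ± 0.14 log2 units (adjusted p = 0.013), and by 0.89 without the doubted array. Trim2, a ubiquitin ligase, had 705, 539.9, 660.3 and 491 at 120 min, against 957, 932, 1366 and 1315 at 10 min, again without overlap. It fell by 0.91 ± 0.15 log2 units (adjusted p = 0.031). A second probe set of Trim2 fell by 0.87 (adjusted p = 0.029), and a further one changed by -0.58 (adjusted p = 0.20).

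Usp30, a deubiquitinase of the outer mitochondrial membrane that opposes mitophagy, had 71.2, 103, 96.3 and 66.2 at 120 min, against 170.3, 152, 235 and 235 at 10 min, and fell by 1.09 ± 0.19 log2 units (adjusted p = 0.036). Gpr146, an orphan G protein-coupled receptor, was a bright gene with 1685, 1527, 1588 and 1336 at 120 min, against 2031, 2325, 2797 and 3219 at 10 min. All 4 arrays at 120 min were below every array at 10 min, and Gpr146 fell by 0.73 ± 0.13 log2 units (adjusted p = 0.036), with a dimmer probe set at -0.61 (adjusted p = 0.082). Cited4, a coactivator that binds CBP and p300, had 552, 496, 653 and 491 at 120 min, against 732, 706, 1096 and 1139.7 at 10 min, and fell by 0.70 ± 0.12 log2 units (adjusted p = 0.032). Preparation 2 was higher than preparation 1 at 10 min for Usp30, Gpr146 and Cited4, and the fall was larger in preparation 2 for all 3.

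Lrrc39, a protein of the sarcomere M-band, had 152, 177, 114 and 163 at 120 min, against 238, 208, 342 and 359.7 at 10 min, and fell by 0.84 ± 0.15 log2 units (adjusted p = 0.036). A second probe set of Lrrc39 changed by -0.34 (adjusted p = 0.12). Narf, which binds prelamin A, had 348, 334, 305 and 297 at 120 min, against 487, 467, 587 and 532 at 10 min and fell by 0.66 ± 0.12 log2 units (adjusted p = 0.037), with a second probe set at -0.43 (adjusted p = 0.10). Neither gene overlapped between the groups.

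The remaining 4 of the largest falls were, like those of Etnk1 and Usp30, measured on dim probe sets. Iffo1, an intermediate filament family member, fell by 0.85 ± 0.12 log2 units (adjusted p = 0.013) from a highest value of 143 at 10 min, while 2 brighter probe sets of Iffo1 changed by -0.73 (adjusted p = 0.096) and -0.59 (adjusted p = 0.12). Fdxacb1 fell by 0.84 ± 0.16 log2 units (adjusted p = 0.04) and Lcmt2, a tRNA-modifying enzyme, by 0.64 ± 0.10 log2 units (adjusted p = 0.019). Exoc3, a subunit of the exocyst, fell by 0.85 ± 0.16 log2 units (adjusted p = 0.043) on 1 probe set, while 3 brighter ones changed by -0.03 to -0.11. For Exoc3 the call was lost when the 10 min duplicate 1 of preparation 1 was left out (adjusted p = 0.144). Without the partner array, the adjusted p-values of these 12 genes ran up to 0.327, and Socs2 was the 1 gene of the 12 still called. With the 120 min duplicate 2 of preparation 1 left out those of Trim2 (0.0638), Exoc3 (0.0636) and Fdxacb1 (0.0924) were above 0.05 as well. Without the preparation as a block 10 of the 12 were not called, with adjusted p-values of 0.0549 to 0.288, and Etnk1 and Iffo1 were.

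Of 35 splicing factors and hnRNP proteins, 2 rose, 0 fell and 33 did not pass, and all 35 estimates were above 0. Their median was 0.11, against -0.0078 for all probe sets, and it stayed above that of all probe sets when arrays were scaled to a common median or left as deposited. The 2 were Clk4 and Clk1, kinases that phosphorylate SR splicing proteins. Clk4 had 658, 693, 725 and 673 at 120 min, against 478, 434, 528 and 505 at 10 min, and Clk1 had 1734, 1932, 1958 and 1738 at 120 min, against 1259.6, 1126, 1445 and 1440.4 at 10 min. Neither gene overlapped between the groups, and Clk4 rose by 0.49 ± 0.07 log2 units (adjusted p = 0.012) and Clk1 by 0.48 ± 0.09 log2 units (adjusted p = 0.041). Clk1 was not called without the partner array (adjusted p = 0.0859). On the deposited scale neither was called, with changes of 0.20 for Clk4 and 0.21 for Clk1.

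Of 26 sarcomere genes 1 rose, 0 fell and 25 did not pass. Their median was -0.0045 and their estimates ran from -0.74 for Lrrc10, a leucine-rich repeat protein of heart muscle (adjusted p = 0.16), to 1.69 for Klhl40, a kelch protein that stabilises thin filament proteins (adjusted p = 0.13), both named after their values were seen. Relative to all probe sets the list stood at 0.003, and at 0.143 with arrays scaled to a common median. The 1 that rose was Xirp1, an actin-binding protein of the intercalated disc, with 3537, 3703, 2983 and 4239.8 at 120 min, against 2718, 2848, 2181 and 2359 at 10 min and a rise of 0.51 ± 0.09 log2 units (adjusted p = 0.036). Without the doubted array, the highest at 120 min, its rise was 0.39 (adjusted p = 0.06) and 0 of 26 were called. The troponin Tnnt2 changed by 0.0062, and the natriuretic peptides Nppa and Nppb by 0.0064 and 0.016. In limma 0 of 19 calcium handling genes were called (estimates from -0.46 to 0.26, with a sign relative to all probe sets that turned with the scaling), with Atp2a2, the sarcoplasmic calcium pump, at -0.11, and 0 of 17 channel and pump genes (from -0.54 to 0.20), with the gap junction gene Gja1 at -0.09.

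Of 27 fatty acid oxidation genes 0 were called in limma, with 23 below 0, a median of -0.14 and estimates from -0.77 to 0.98, the last for Pdk4, a kinase that inhibits pyruvate dehydrogenase (adjusted p = 0.075). Without the doubted array 1 fell, Ppargc1a, the coactivator of mitochondrial biogenesis, by 0.83 (adjusted p = 0.042), where it changed by -0.77 (adjusted p = 0.061) with all 8 arrays. Of 35 respiratory chain and ATP synthase subunits 0 were called, with 31 below 0 and a median of -0.072. Relative to the median of all probe sets that list stood at 0.052 with arrays scaled to a common median and 0.038 on the deposited scale, so its direction depends on the scaling.

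Of 28 inducible heat shock proteins and co-chaperones 0 were called in limma, with a median of -0.0008. Hspa1a changed by 1.30 ± 0.59 log2 units (adjusted p = 0.27), 0.13 in preparation 1 and 2.47 in preparation 2, and by 0.56 (adjusted p = 0.46) without the doubted array. With the 120 min ischemia+reperfusion array that stood apart also left out of the limma fit, the adjusted p of this 0.56 was 0.12. In that fit 1 member of the list was called lower, Dnajb1 (-0.33, adjusted p = 0.031). Both arrays were left out because of their values. The small heat shock protein Cryab changed by 0.00038. In limma 0 of 21 integrated stress response genes and 0 of 21 endoplasmic reticulum chaperone genes were called, with Atf4 at -0.016 and Hspa5 at 0.11. Of 20 NRF2 targets and metallothioneins 0 were called, and 1 rose without the doubted array, the quinone reductase Nqo1 (0.38, adjusted p = 0.042). Srxn1, which repairs peroxiredoxins, changed by 1.01 (adjusted p = 0.32) and Hmox1, which degrades heme, by 0.77 (adjusted p = 0.24).

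Lists of housekeeping and growth functions were also without calls in limma with all 8 arrays. The 20 ribosomal protein genes spanned only -0.022 to 0.12 and the 28 proteasome genes -0.079 to 0.095. The 26 cell cycle genes had a median of -0.011, the 25 sterol synthesis genes 0.15, the 17 BCL2 family and p53 targets 0.077, the 22 ubiquitin ligase and autophagy genes 0.017, the 12 clock genes 0.0016 and the 4 glucose-sensing genes 0.065. The 16 natriuretic peptide and cardiac transcription factor genes had -0.035. Of 30 chromatin and transcription genes, with a median of 0.15, 1 rose without the doubted array, the cyclin Ccnt2 (0.60).

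Of 27 collagens and matrix enzymes 0 were called in limma, 26 estimates were above 0 and the median was 0.23, also above that of all probe sets on both other scalings. The median was 0.18 for 14 fibroblast markers (13 above 0) and 0.38 for 9 endothelial markers (8 above 0), with 0 called on the probe sets that stand for them. A further probe set of the fibroblast marker Thy1 was called (1.01, adjusted p = 0.040), where its brightest one changed by 0.33. The summed intensity of the fibroblast markers was 60710 to 62950 at 120 min and 50970 to 61130 at 10 min, and that of the endothelial markers 4361 to 5516 at 120 min and 3449 to 4582 at 10 min. Smooth muscle markers had a median of 0.10, epicardial markers 0.073 and neural markers -0.048, none called. The 12 cardiomyocyte markers had -0.039, and relative to all probe sets 0.123 with arrays scaled to a common median, so their direction depends on the scaling. The part of cell mixture in these values was not tested.

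**Figure D3:**
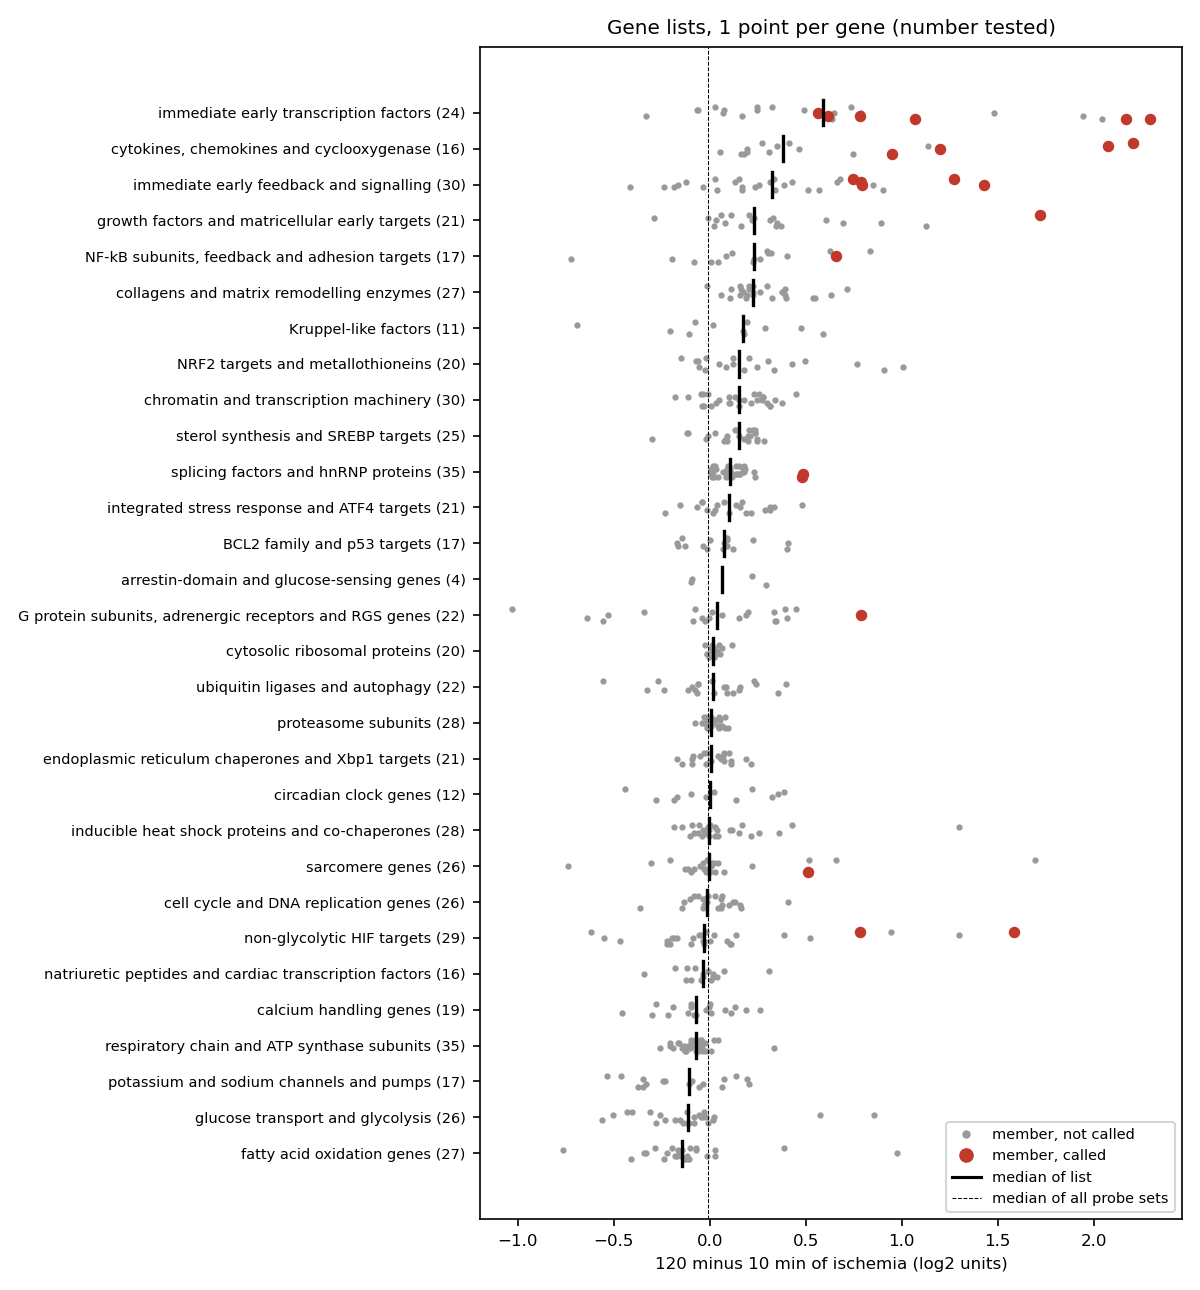
Change between 120 and 10 min (horizontal axis, log2 units) of every tested member of 30 gene lists, 1 point per gene by its brightest probe set, with called members in red, the list median as a bar and the median of all probe sets as a dashed line. Called members sit mainly in the immediate early and cytokine lists at the top. The 20 ribosomal protein genes all lie between -0.022 and 0.12.

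Leaving out the doubted array moved single genes in both directions. The rise became larger for Il1b (2.59, against 2.07 with it), Cxcl2 (2.67 against 2.21) and Il1a (1.59 against 1.20). It became smaller for Nr4a3 (1.35 against 1.84) and Gdf15 (1.47 against 1.72). It hardly moved for Fos (2.27 against 2.29), Ier2 (1.26 against 1.27) and Zfp36 (0.77 against 0.79). Cxcl3 was called on its dimmer probe set with all 8 arrays and without the doubted one (1.05, adjusted p = 0.025), while its brightest probe set was called without the array (0.80, adjusted p = 0.036) and had 0.75 with all 8 (adjusted p = 0.053). Also called without the array were the chemokine Ccl4 (1.49, adjusted p = 0.044) and the adhesion molecule Icam1 (0.56, adjusted p = 0.036). Interleukin-6 (Il6) was called as well (1.09, adjusted p = 0.041, where all 8 arrays gave 0.89 and 0.086).

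**Figure D4:**
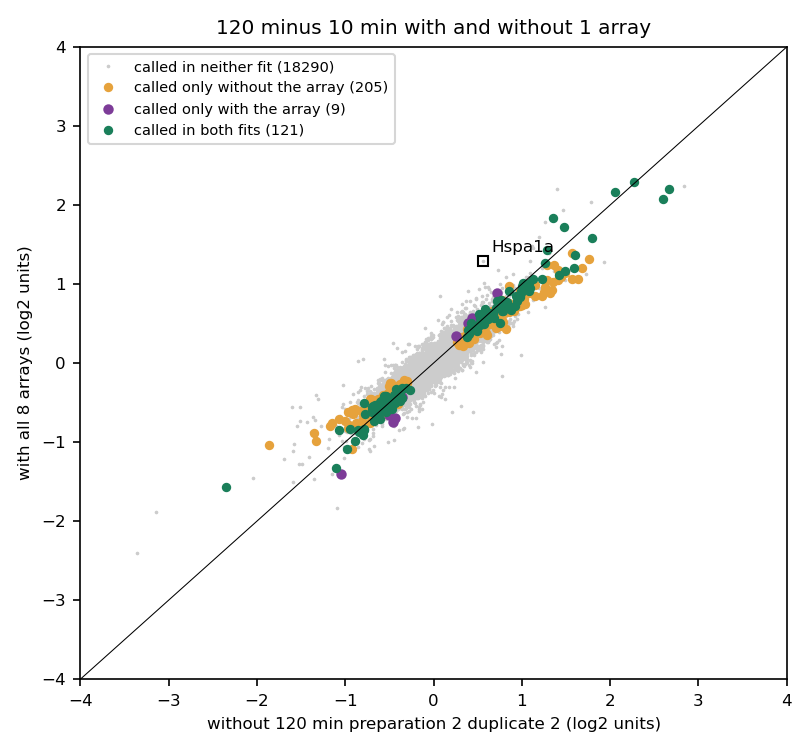
Change between 120 and 10 min without the doubted array (horizontal axis) and with all 8 arrays (vertical axis), both in log2 units, 1 point per probe set. The 121 probe sets called both ways (green) lie near the diagonal, 205 were called only without the array (orange) and 9 only with it (purple). Hspa1a is marked and was called in neither.

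The other ischemia groups show how the named genes ran between these times. Levels are group means on the log2 scale at 0, 10, 30, 60 and 120 min, and steps between other times were not tested here. Fos had 8.53, 9.07, 10.81, 11.31 and 11.36, so its largest step lay between 10 and 30 min. Nr4a1 had 8.67, 8.48, 9.19, 9.79 and 10.65 and Cxcl2 7.39, 8.11, 8.71, 9.04 and 10.32, both higher at each later time from 10 min on. Il1b had 6.83, 6.92, 7.04, 7.55 and 8.99 and Gdf15 7.09, 6.77, 7.02, 7.37 and 8.49, with the largest step between 60 and 120 min. Ddit4 had 9.19, 10.11, 10.23, 10.77 and 11.69, with a step between 0 and 10 min and another after 30 min. Junb had 8.96, 9.45, 9.80, 9.96 and 10.52 and Zfp36 9.96, 10.06, 10.27, 10.56 and 10.85, in small steps at each time.

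Among the falls, Socs2 had 10.08, 9.95, 10.08, 10.03 and 8.96 and Trim2 10.06, 10.16, 10.07, 10.03 and 9.25, level up to 60 min and lower at 120 min. Exoc3 had 7.23, 7.22, 7.38, 7.25 and 6.37 and Iffo1 7.21, 7.23, 7.11, 7.03 and 6.38, with the same shape. Usp30 had 7.35, 7.72, 6.77, 6.76 and 6.63, with its largest step between 10 and 30 min. Narf had 8.52, 9.06, 9.07, 8.93 and 8.39, so that 10 to 60 min stood above 0 min and 120 min came back near the 0 min level. Gpr146 had 10.99, 11.33, 11.09, 11.06 and 10.59 and Cited4 9.57, 9.83, 9.71, 9.54 and 9.13, both highest at 10 min. Clk1 had 10.42, 10.37, 10.34, 10.62 and 10.86 and Clk4 8.90, 8.97, 9.01, 9.16 and 9.46, with the higher levels at 60 and 120 min.

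**Figure D5:**
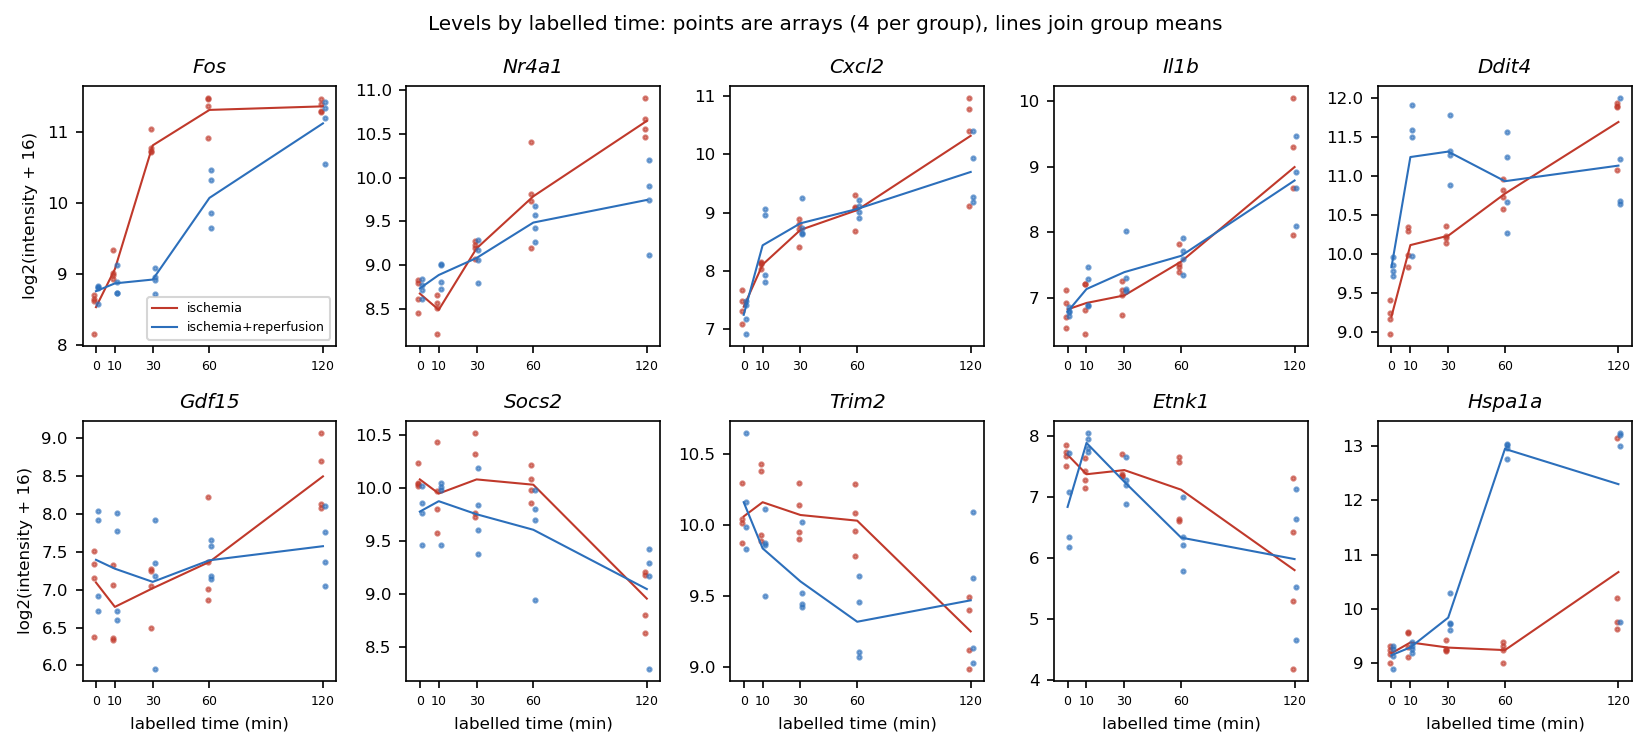
Levels of 10 genes, as log2(intensity + 16), against the labelled time in min, for ischemia (red) and ischemia+reperfusion (blue), with points for the 4 arrays of a group and lines through group means. In ischemia Fos had its largest step between 10 and 30 min and Il1b between 60 and 120 min. Socs2 and Trim2 were lower at 120 min than at 10 min of ischemia. Hspa1a shows the single high array at 120 min of ischemia and the single low one at 120 min of ischemia+reperfusion.

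The arm with reperfusion has its own arrays at both times, so it shares no samples with this comparison. The preparation numbers and the fit's error estimate are the same. Of the 130 probe sets called in ischemia, 120 changed in the same direction between 120 and 10 min of ischemia+reperfusion (92.3%, against 66.7% of all tested), and 59 of them were called there, where 3.09% of all probe sets (576) were called. An array in each arm at 120 min stood apart, and these shares were lower without both. Whether the 2 arrays carry each other's labels was not tested. Of the 419 probe sets then called in ischemia (2.25%), 351 had the same direction in the other arm (83.8%, against 60.5% of all tested) and 94 were called there (22.4%, against 45.4% of the 130), where 3.43% of all (638) were called. With all arrays Fos had 2.26 in that arm (adjusted p = 0.004), Il1b 1.66 (adjusted p = 0.0059), Cxcl2 1.26 (adjusted p = 0.026) and Socs2 -0.83 (adjusted p = 0.018). Of the rises named by rule, those not called there were Nr4a3 (1.00), Gdf15 (0.30), Ddit4 (-0.11), Bhlhe40 (-0.068) and Itgb2 (0.051). Of the 12 largest falls, those not called were Trim2 (-0.37), Exoc3 (-0.38), Fdxacb1 (-0.18), Gpr146 (-0.16), Cited4 (-0.33), Narf (-0.50) and Lcmt2 (-0.28). The rest of the 12 were called there.

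The test of the difference itself, ischemia minus ischemia+reperfusion in the change between 120 and 10 min, called 0 probe sets in limma (0%, 1335 at an unadjusted p under 0.05), and 0 without the doubted array (1424). So no gene was shown to change differently in the arms with the arrays as labelled. Leaving out both 120 min arrays that stood apart, 1 in each arm, 47 were called (0.252%), 10 with the more positive change in ischemia (0.0537%) and 37 (0.199%) with the more positive change in ischemia+reperfusion. Those arrays were left out because of their values, Hspa1a among them, so the 47 calls describe that choice and are not given as differences between the arms. With both left out, Ddit4 had 1.79 in ischemia and -0.45 in ischemia+reperfusion, and Hspa1a had 0.56 in ischemia and 3.82 in ischemia+reperfusion. With all arrays in the fit neither difference was called.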

How the data were processed

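Total RNA was extracted on spin columns, amplified by a modified Eberwine method and labelled with biotin, per the labels' protocols, and hybridised to Affymetrix arrays. The deposited values are linear intensities, 1 per probe set, between -1725 and 17404, of which 15.8% were negative. The algorithm behind them and its scaling were not given in the sources used here. Of 31042 probe sets, 20826 had 1 gene symbol (14217 genes), 436 several and 9780 none, and genes were named only from those with 1.

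Intensities of all 40 arrays were quantile-normalised, floored at 0 and taken as log2(value + 16), which understates changes of dim probe sets. The test took the 18625 probe sets with a mean over the 40th percentile (6.48, or 73.2 as intensity), and 0.066% of their values were at the floor. Duplicates were averaged to 20 values, and all 10 groups were fitted with the preparation as a block in limma 3.58.1 (R 4.3.3), with 9 residual and 2.27 prior degrees of freedom, two-sided moderated tests and Benjamini-Hochberg adjustment. The contrast was 120 minus 10 min of ischemia, with a 95% interval half-width of 0.258 at the median.

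The block rests on preparation numbers in the titles, taken here to mark a cell preparation shared by the groups. The titles do not state that it was shared. Preparation differences correlated by a median of 0.184 over 45 pairs of groups (-0.178 to 0.526, 34 above 0.1), and by -0.032 between 120 and 10 min (0.119 without the doubted array). In the fit with arrays as samples, duplicates correlated by 0.078 in what was left after group and preparation were fitted. Whole arrays correlated by 0.965 to 0.989 within the 120 min group, which is a different measure. Among all arrays 0 pairs were identical. On simulated data for this contrast (18625 probe sets) recovery was 47.8% at 0.5 log2 units, 83.6% at 1 and 98.5% at 2, with 8 false calls. The simulated arrays were independent and normal, with the fitted spread of each probe set. They had no preparation effect, no correlation of duplicates and no array that stood apart. These shares hold for that setting and may not hold for the real arrays.

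The 38 gene lists held 844 genes, 759 of them on the array and 708 tested, each by its brightest probe set. The members, the lists and the tests were chosen with earlier results of these data known, so no p is given over a list. Named genes are, by rule, the 12 largest rises and 12 largest falls called with and without the doubted array and alike in both preparations, up to 4 called members per list, up to 2 of the brightest members of lists without a call, and Hspa1a. Other genes with printed values were picked from the lists after their values were seen. Promoter sequences are from RefSeq, build GRCr8.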

Additional observations from a re-analysis of the deposited data

Results flagged for a closer look

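In 172 groups of 4 arrays of the named probe sets, 10 held an array far from the other 3 (5.81%), 4 of them at the doubted array. Independent values would give about 1 in 20, but the 4 arrays are 2 preparations with duplicates, so that rate is a rough guide. Hspa1a was named because it shows the doubted array, so its flag there follows from that choice. That array had log2 levels of 13.15 for Hspa1a (others 9.62 to 10.19), 11.07 for Ddit4 (others 11.88 to 11.93), 7.38 for H4f3 (others 8.32 to 8.43) and 13.06 for the matrix protein gene Sparc (others 13.12 to 13.13). The remaining 6 lay on 5 other arrays. At 120 min, preparation 1 duplicate 2 had 13.07 for the chaperone gene Hspa5 (others 12.97 to 12.98), and preparation 2 duplicate 1 had 12.97 for the sodium pump subunit gene Atp1b1 (others 13.03 to 13.05) and 8.69 for the epicardial transcription factor gene Tbx18 (others 8.30 to 8.34). At 10 min, Exoc3 had 6.61 in preparation 1 duplicate 2 (others 7.35 to 7.48), the transcription regulator gene Hexim1 had 11.20 in preparation 1 duplicate 1 (others 11.07 to 11.09) and the proteasome gene Psmb1 had 12.60 in preparation 2 duplicate 1 (all others 12.52).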

How the results depend on the processing

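The 130 calls between 120 and 10 min became 42 without the preparation as a replicate block, 2069 on the deposited scale, 197 with a 60th percentile filter, 23 with only the 5 ischemia groups, 0 with only the 120 and 10 min groups (2172 at an unadjusted p under 0.05), 1191 with arrays as samples and 419 without both arrays that stood apart. Leaving out each of the 8 arrays in turn gave 23 to 326. A common median gave 128 calls, pseudocounts of 64 and 4 gave 169 and 130, and no filter gave 176. Without the doubted array, the 326 became 125 without the block, 5051 on the deposited scale (85 higher, 4966 lower, median -0.342), 14 with the 5 ischemia groups, 0 with the 120 and 10 min groups (2701 unadjusted) and 892 with arrays as samples, and 292 to 471 under the other scaling, pseudocounts and filters. The contrast between the arms went to 47 calls without both arrays that stood apart and stayed at 0 without the block. Called members of the lists numbered 22, 27 counting any probe set of a gene and 32 without the doubted array. None of the 86 named probe sets reversed with a call in any setting. Of those with a call, 19 lost it without the block, 24 with the 5 ischemia groups, 33 with the 120 and 10 min groups, 26 without the partner array, 9 without a filter, 6 on the deposited scale, and 0 to 4 elsewhere. The cause of these differences was not tested. The reduced fits also had fewer samples and residual degrees of freedom. Dim probe sets are limited by the pseudocount. Removal of the doubted array from the lists and of both arrays from the second fit, the list scalings and the other arm's contrast were added after the data were seen.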

Other observations

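Some called genes lie outside the lists and were picked here after their values were seen, so they are values only and stand for no theme. Higher at 120 min were Hic1 (0.92), a repressor, Snai1 (0.70), which represses epithelial genes, Runx1 (0.60), a factor of blood cell development, Tgif1 (0.58), a corepressor of TGF-beta signalling, Hey1 (0.57), a Notch target, and Tle4 (0.55), a Groucho corepressor. Further probe sets of the splicing genes Hnrnpu (0.97) and Srsf11 (0.68) were called, where the brightest probe sets of these genes changed by 0.14 and 0.23. Itgb3, the beta-3 integrin, rose by 0.62 log2 units.

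Lower at 120 min were the complex I assembly factor Ndufaf1 (-0.55), the inner membrane import gene Timm22 (-0.49), the mitochondrial ribosomal protein gene Mrpl40 (-0.39), the mitochondrial histidyl-tRNA synthetase gene Hars2 (-0.45), Slc25a46 (-0.48), an outer membrane carrier family member, and Tmem177 (-0.69), all in log2 units. Gata5, a cardiac transcription factor, fell by 0.56, Adora1, the adenosine A1 receptor, by 0.74, and Mitf, a transcription factor, by 0.62. Probe sets of Myh1, a skeletal muscle myosin heavy chain, were called in opposite directions without the doubted array (0.74, 1.68 and -0.96), so the gene has no single value here.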
